A study of Mus musculus with 19 samples.

Results

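High endothelial cells (HEC) sorted from Peyer's patches were compared with HEC sorted from peripheral lymph nodes, gene by gene. The comparison was chosen by sample titles alone. It uses 7 of the 19 expression arrays of the study, 3 arrays of Peyer's patch HEC and 4 of peripheral HEC, and covers the 19938 genes whose probe sets carry a single gene symbol. The cells came from BALB/c mice, an inbred strain, aged 6 to 8 weeks, and the labels describe each sample as a mix of equal parts male and female. No mutation, transgene or treatment is stated for any group. The labels give no antibodies or gates for the HEC of either tissue. They also do not say whether the arrays of a group came from separate mice or separate sorts, so the p-values measure only how these samples vary, and that variation may be technical. The other arrays serve as context. They are 4 arrays of mesenteric node HEC (2 from cells positive for both MAdCAM1 and PNAd, 2 from cells gated on MAdCAM1), 3 arrays each of Peyer's patch and peripheral capillary endothelial cells, and 2 of mesenteric capillary cells.

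The venules that HEC form are the gates by which lymphocytes pass from blood into lymphoid tissue. Peyer's patches are lymphoid follicles in the wall of the small intestine, whereas peripheral nodes drain skin and muscle. In textbook accounts the HEC of each site carry a different address. Peripheral HEC display PNAd, a set of mucin-type proteins decorated with sulfated, fucosylated and sialylated sugars that L-selectin on lymphocytes binds. Peyer's patch HEC display MAdCAM1, an immunoglobulin-family protein that integrin alpha4beta7 on gut-homing lymphocytes binds. The homeobox factor Nkx2-3 is known to be needed for MAdCAM1 in gut vessels.

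All values are log2 signals that the authors centred for each probe set, so a value tells how an array stands against other arrays for the same gene. It gives no level of 1 gene against another. A difference is Peyer's patch minus peripheral HEC on the log2 scale, with the standard error (SE) of the model, and 1 unit is a 2-fold difference. A gene is called when the adjusted p of limma's moderated test, adjusted by Benjamini-Hochberg over all genes, is below 0.05. Endothelial genes were checked against the label. Cdh5, which encodes the endothelial cadherin, differed by 0.00 ± 0.08 and Pecam1 by -0.10 ± 0.09, and neither was called. Of 15 blood endothelial markers 5 were lower in Peyer's patch HEC and 0 higher, against 4.49% and 2.16% of all genes. Fits that left out 1 array gave from 2 to 6 lower. The HEC genes Glycam1 and Ackr1 stood between 3.23 and 5.18 in all 7 arrays, while the Peyer's patch capillary arrays stood between -2.26 and 0.16. The peripheral capillary arrays gave 4.42, 4.11 and 1.70 for Glycam1 and 0.89 to 1.05 for Ackr1. Of 8 measured HEC markers, 1 was higher and 3 were lower in Peyer's patch than in peripheral HEC.

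The genes at the top and the bottom of the ranking are an addressin and an enzyme of the other address, Madcam1 and Chst4. Their promoters are printed because each carries the largest difference in its direction. Each run is the 250 bases upstream of the annotated start, 5′ to 3′ on the gene's own strand, from RefSeq with build GRCm38.p6. Capitals mark matches, on either strand and with overlaps merged, to the NF-kB motif GGGNNTTCC or its longer form with 3 free letters in the middle in place of 2. NF-kB factors act downstream of the lymphotoxin beta receptor.
Madcam1, chr10:79664309-79664558, plus strand: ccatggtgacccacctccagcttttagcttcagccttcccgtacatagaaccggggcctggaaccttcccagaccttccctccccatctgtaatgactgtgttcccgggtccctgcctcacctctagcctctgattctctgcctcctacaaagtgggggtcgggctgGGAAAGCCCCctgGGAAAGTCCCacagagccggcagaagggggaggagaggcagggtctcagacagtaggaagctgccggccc
Chst4, chr8:110039335-110039584, minus strand: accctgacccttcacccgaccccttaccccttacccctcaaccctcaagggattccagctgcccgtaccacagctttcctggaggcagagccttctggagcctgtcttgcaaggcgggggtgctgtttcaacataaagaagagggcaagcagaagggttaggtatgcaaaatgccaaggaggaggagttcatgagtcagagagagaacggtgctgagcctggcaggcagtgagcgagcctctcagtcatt
The Madcam1 window held 2 matches to the longer form, the upstream one at position -83 from the start, where 1 match to the 9-letter form overlaps it. The Chst4 window held 0 matches to either form. Among 27025 promoter windows of this length, 4.6% held the longer and 4.9% the 9-letter form. Each form was in 1 of the 12 highest genes with a window (Madcam1) and in 1 of the 9 lowest (Rnase1). The NK2 homeodomain motif TNAAGTG, which 2713 of all windows held, was in neither window, and nor was the MEIS motif TGACAG, which 16.0% held. These are matches of letters in 1 window, and the arrays did not measure binding.

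Of 19938 genes, 1326 were called (6.65%). Of these, 431 were higher in Peyer's patch HEC (2.16% of all genes) and 895 were lower (4.49%). Counts of called list members below stand against these shares. At least 2-fold differences were called for 214 genes (1.07%), 72 higher (0.361%) and 142 lower (0.712%). In 212 of the 214 the arrays of the tissues did not overlap, against 15.5% of all genes with no overlap in either direction (6.55% with all Peyer's patch arrays above and 8.99% with all below). The 214 were chosen by difference and adjusted p on the same arrays, so their separation is a description and no further evidence. The median difference over all genes was 0.03. The split of calls leaned to the lower side, with 32.5% of them higher, but this share moved to 51.8% when Peyer's patch array 3 was left out, and the total then moved from 1326 to 5300. Without Peyer's patch array 1, 712 genes were called, and without array 2, 790. Without peripheral array 4 there were 858 calls. The count of at least 2-fold genes was steadier, between 199 and 258 over the 7 fits that each left out 1 array.

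**Figure D1:**
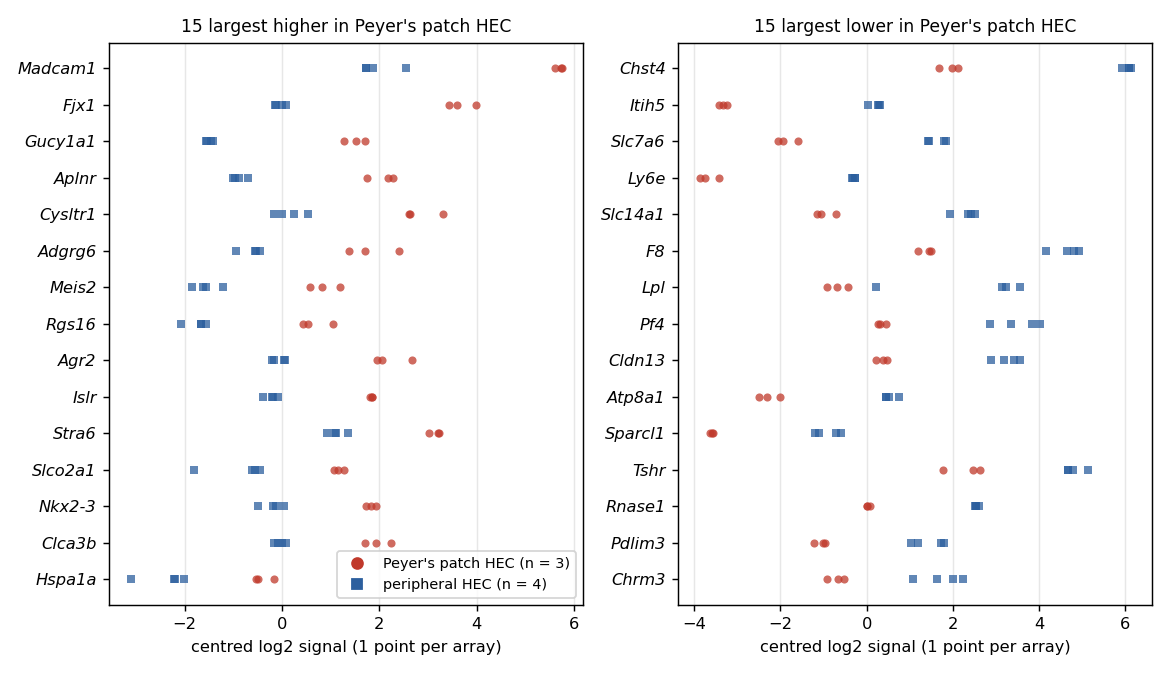
Centred log2 signal of the 15 highest and 15 lowest genes, 1 point per array, circles for the 3 Peyer's patch HEC arrays and squares for the 4 peripheral HEC arrays. The rule that chose the 30 genes required groups that do not overlap, and peripheral array 1 lies apart from the other peripheral arrays for Lpl (0.22) and Slco2a1 (-1.80).

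Madcam1 was the most strongly raised gene. The Peyer's patch arrays gave 5.75, 5.60 and 5.74, and the peripheral arrays 2.55, 1.73, 1.73 and 1.87. The groups lay far apart, at 5.69 ± 0.08 (SD, n = 3) against 1.97 ± 0.39 (SD, n = 4), a difference of 3.72 ± 0.21 (SE) or 13.2-fold (adjusted p = 6.87e-09). Nkx2-3, the homeobox factor named above, gave 1.72, 1.93 and 1.83 in Peyer's patch HEC and -0.13, 0.03, -0.19 and -0.48 in peripheral HEC. It was 4.06-fold higher (2.02 ± 0.17, adjusted p = 7.18e-07).

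The enzymes that build the L-selectin sugar went the other way. Chst4, the sulfotransferase that is largely restricted to HEC, gave 1.98, 2.11 and 1.69 in Peyer's patch HEC against 6.08, 6.08, 6.13 and 5.91 in peripheral HEC. That is the largest difference of any gene, 17.4-fold lower (-4.12 ± 0.34, adjusted p = 5.66e-07). Chst2, the second sulfotransferase of this sugar, was lower by a smaller amount, with 0.80, 0.77 and 0.67 against 1.71, 1.77, 1.53 and 1.38 (-0.85 ± 0.13, adjusted p = 0.000444). Fut7, the fucosyltransferase that completes sialyl Lewis X, gave 2.76, 2.99 and 2.60 against 3.58, 3.70, 3.73 and 3.71 (-0.90 ± 0.17, adjusted p = 0.00254). St3gal4, a sialyltransferase of the same structure, differed by -0.62 ± 0.12 (adjusted p = 0.00397). Of the 16 measured enzymes of sialyl Lewis X sulfation and fucosylation, these 4 were lower and 0 were higher, and the median difference was -0.26 against 0.03 for all genes. In each fit without 1 array, 4 to 6 of them were called lower. The branching enzyme Gcnt1, which starts the arm on which the sugar sits, gave 3.09, 3.06 and 3.36 against 3.62, 3.09, 3.44 and 3.06, and the groups overlapped. Its difference was -0.13, with a 95% interval from -0.57 to 0.30. B3gnt3, which extends the other arm, differed by -0.05 (interval from -0.30 to 0.20). Neither was called, and for both the interval excludes a 2-fold difference.

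The supply of building blocks also held genes that were lower. Gmds, the enzyme that starts synthesis of the fucose donor, differed by -0.82 ± 0.15 (adjusted p = 0.00292), and the sulfate transporter Slc26a2 by -0.64 ± 0.18 (adjusted p = 0.0456). They were the 2 called members of 12 measured in the list of sulfate and fucose supply. The Slc26a2 call was lost in 6 of the 7 fits that each left out 1 array, and those fits gave from 1 to 4 lower members.

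Sialic acid genes moved in both directions. St6gal1 caps galactose with sialic acid in alpha2,6 linkage, which makes the ligand of CD22. It gave 0.84, 0.56 and 1.27 in Peyer's patch HEC against -0.62, -0.71, -0.45 and -0.44 in peripheral HEC and was 2.72-fold higher (1.44 ± 0.13, adjusted p = 1.19e-06). St6galnac2, which adds sialic acid to the inner sugar of mucin-type chains, was higher by 0.57 ± 0.14 (adjusted p = 0.021), a call lost in 5 settings, among them the fits without Peyer's patch array 1 or peripheral array 1. Nans, which makes sialic acid itself, was lower (-0.75 ± 0.12, adjusted p = 0.000666). Cmah, which hydroxylates it, differed by -0.78 ± 0.20 (adjusted p = 0.0287), but this call was lost in 6 of the alternative settings, 5 of them fits that left out 1 array. Of 17 measured sialic acid genes, 2 were higher and 2 lower, and fits without 1 array gave from 1 to 5 lower.

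**Figure D2:**
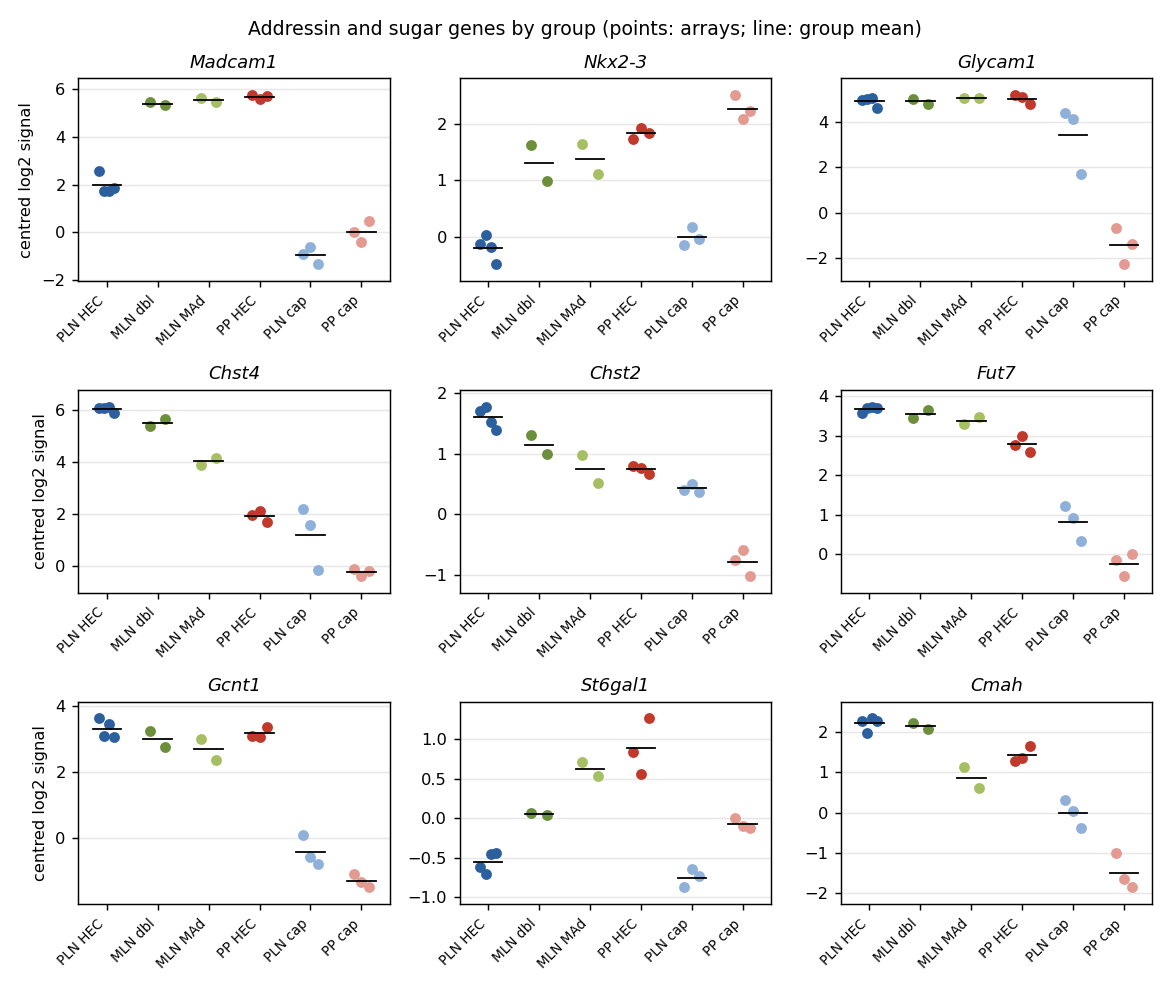
Centred log2 signal of 9 addressin and sugar genes in peripheral (PLN), mesenteric (MLN) and Peyer's patch (PP) HEC and in peripheral and Peyer's patch capillary cells (cap), 1 point per array with a line at each group mean; dbl marks the sort for MAdCAM1 and PNAd, and MAd the sort for MAdCAM1. The Chst4 means are 6.05 in peripheral and 1.93 in Peyer's patch HEC with mesenteric HEC between, while Glycam1 stands at 4.60 to 5.18 in all HEC arrays.

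The proteins that carry the sugar differed in both directions. Glycam1, a mucin that HEC secrete and that bears the sulfated sugar, gave 5.18, 5.08 and 4.78 in Peyer's patch HEC and 4.99, 5.02, 5.07 and 4.60 in peripheral HEC. The groups overlapped, and the difference was 0.09 (95% interval from -0.90 to 1.08). Its standard error, 0.47, was wide although the HEC arrays lay close together, because the model shares 1 variance over all groups and the peripheral capillary arrays of this gene spread from 1.70 to 4.42. The sialomucin Cd34 differed by -0.05 (interval from -0.33 to 0.23) and Podxl by 0.26 (interval from 0.06 to 0.45), and neither was called. Cd300lg, also known as nepmucin and a PNAd carrier, was lower. It gave -0.30, 0.00 and -0.58 against 1.55, 2.08, 1.77 and 1.81, a 4.28-fold difference (-2.10 ± 0.16, adjusted p = 2.32e-07). The mucin-like proteins Emcn (-0.99 ± 0.10) and Parm1 (-0.98 ± 0.13) were lower as well. Of 9 measured carriers, 1 was higher, Madcam1 itself, and 3 were lower. Madcam1 and the PNAd sugar are also antigens by which HEC are sorted, and the labels name them as gates only for mesenteric cells. A difference between tissues in Madcam1 or in the PNAd enzymes cannot be told apart here from a difference in how the cells were gated.

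Of 16 leukocyte adhesion genes, 3 were higher and 3 lower. Icam1 gave 0.44, 0.29 and 0.50 against 0.70, 0.64, 0.95 and 0.43, which overlapped (-0.27, interval from -0.65 to 0.12, not called). Vcam1, the other ligand of alpha4 integrins, gave 0.16, 0.21 and 0.26 against 1.06, 0.73, 1.59 and 0.99. It was called lower (-0.88 ± 0.21, adjusted p = 0.0188), and the call was lost in 4 settings, 3 of which left out 1 array. Sele, which encodes E-selectin, differed by -0.79 ± 0.26 and was not called (adjusted p = 0.0836). Nt5e, the ecto-enzyme CD73 that makes adenosine, was lower by 1.79 ± 0.29, with 0.56, 0.22 and 0.66 against 1.16, 2.70, 2.90 and 2.30. Cd44, the hyaluronan receptor, gave 1.31, 1.29 and 1.30 against -0.06, -0.31, -0.14 and -0.27 and was higher (1.50 ± 0.23, adjusted p = 0.000475). The higher genes of this list were Madcam1, Cd44 and Mcam, and the lower ones Nt5e, Vcam1 and Esam. Leaving out single arrays gave between 1 and 6 lower.

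Chemokines were mostly not called. Of 23 measured, Cxcl10 (1.11 ± 0.14, adjusted p = 8.31e-05) and Cxcl11 (1.24 ± 0.24, adjusted p = 0.00415) were higher and 0 were lower. Both are interferon-induced ligands of Cxcr3. Cxcl11 gave 2.57, 2.12 and 3.33 against 1.35, 1.39, 1.38 and 1.60. Interferon genes as a list did not share this direction, with 2 of 20 higher (Ifit1 and Iigp1) and 2 lower (Ifit3 and Usp18). Without single arrays, from 0 to 4 were lower, and Ifit1, Ifit3 and Usp18 lost their calls in 3, 6 and 5 of the 7 fits. Cxcl13, the B cell attractant, gave -0.51, -0.23 and -0.69 against -0.33, 0.01, 0.57 and 0.00, with an interval from -1.07 to -0.01, and was not called (adjusted p = 0.199). The atypical receptors Ackr1 and Ackr2, which bind chemokines without classical signalling, differed by 0.12 (interval from -0.26 to 0.50) and 0.00 (interval from -0.39 to 0.39). Cmklr1, the chemerin receptor, was higher (1.00 ± 0.13, adjusted p = 9.46e-05). Ccr7, the receptor by which naive lymphocytes enter nodes, was lower, with 0.24, 0.00 and 0.00 against 1.52, 1.44, 1.46 and 1.78 (-1.47 ± 0.15). The pathway that maintains HEC, the lymphotoxin beta receptor and NF-kB, had 0 members higher and 2 lower of 17. Those were Map3k14, the kinase NIK (-0.53 ± 0.08, adjusted p = 0.000255), and Traf2 (-0.51 ± 0.12, adjusted p = 0.0173), which lost its call in 3 of the 7 fits without 1 array. Those fits gave from 1 to 5 lower members. The receptor Ltbr itself differed by -0.25 ± 0.08 and Relb by -0.27 ± 0.10, neither called.

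Homeobox genes differed between the tissues in both directions. Meis2, a homeobox partner of Hox proteins, gave 0.82, 0.57 and 1.19 in Peyer's patch HEC against -1.56, -1.63, -1.84 and -1.21 in peripheral HEC, 5.34-fold higher (2.42 ± 0.17, adjusted p = 6.63e-08). Its relative Meis1 was higher by 0.77 ± 0.14 (adjusted p = 0.00292). Hoxd8 gave -1.02, -1.01 and -0.19 against 0.39, 0.29, 0.38 and 0.35, and was lower (-1.09 ± 0.17, adjusted p = 0.000444). Hoxd9 was lower too (-0.60 ± 0.15, adjusted p = 0.0241). Of 34 measured Nkx2-3 and homeobox genes, 5 were higher and 2 lower. Fits without 1 array gave from 3 to 9 higher, the fewest without Peyer's patch array 1 and the most without array 3, and from 1 to 3 lower, and Hoxd9 lost its call in 3 of the 7. The venous factor Nr2f2 differed by 0.46 ± 0.14 and was not called (adjusted p = 0.0673).

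Of 19 measured genes of nitric oxide, cyclic GMP and endothelin signalling, 3 were higher, 1 lower and 15 not called. Nitric oxide from the endothelial synthase Nos3 acts on soluble guanylate cyclase, a pair of the alpha subunit Gucy1a1 and the beta subunit Gucy1b1, which makes cyclic GMP. Gucy1a1 gave 1.52, 1.27 and 1.70 in Peyer's patch HEC against -1.54, -1.41, -1.57 and -1.47 in peripheral HEC, 7.96-fold higher (2.99 ± 0.15, adjusted p = 1.48e-09). Gucy1b1 gave 0.05, 0.04 and 0.91 against -0.88, -1.14, -1.02 and -0.96 (1.34 ± 0.17, adjusted p = 8.73e-05). Nos3 gave 0.30, 0.00 and 0.23 against -0.90, -1.03, -0.80 and -0.70 (1.04 ± 0.11, adjusted p = 8.88e-06). The synthase and both cyclase subunits were the 3 higher members. Npr2, a receptor that makes cyclic GMP in response to natriuretic peptide, was the 1 lower member (-0.79 ± 0.12).

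Receptors coupled to G proteins held some of the largest differences in both directions. Aplnr, the apelin receptor of veins and sprouting vessels, gave 2.17, 1.75 and 2.27 against -0.96, -0.89, -0.69 and -1.005 (2.95 ± 0.14, adjusted p = 7.05e-10). Adgrg6, an adhesion receptor, gave 1.71, 1.38 and 2.40 against -0.54, -0.55, -0.94 and -0.46 (2.45 ± 0.23, adjusted p = 2.62e-06). F2rl3, a thrombin receptor, was higher by 1.39 ± 0.16. Rgs16, which shortens signalling by such receptors, gave 0.53, 0.43 and 1.04 against -1.66, -1.66, -2.08 and -1.57 (2.41 ± 0.15). On the other side stood Tshr, the thyrotropin receptor, with 2.48, 1.76 and 2.64 against 5.13, 4.67, 4.77 and 4.67 (-2.52 ± 0.29, adjusted p = 2.22e-05). Chrm3, a muscarinic acetylcholine receptor, gave -0.92, -0.66 and -0.52 against 2.00, 1.07, 1.64 and 2.24 (-2.44 ± 0.21). In the list of G protein-coupled receptors of HEC, which does not hold Chrm3, 5 of 30 were higher and 3 lower, with from 3 to 7 higher and from 3 to 5 lower without single arrays.

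Lipid mediators formed a further group. Cysltr1, a receptor for cysteinyl leukotrienes, gave 2.61, 2.63 and 3.30 against 0.24, -0.17, 0.00 and 0.53 and was 6.47-fold higher (2.69 ± 0.25, adjusted p = 1.84e-06). Slco2a1, the prostaglandin uptake transporter, gave 1.16, 1.07 and 1.28 against -1.80, -0.45, -0.62 and -0.55 (2.03 ± 0.22, adjusted p = 1.43e-05). Peripheral array 1 was low for this gene, and over the fits without 1 array the difference ranged from 1.71 to 2.16. Abcc4, which exports prostaglandins, was higher by 1.12 ± 0.15, and Ptgis, which makes prostacyclin, by 0.89 ± 0.10. Ptgds, which makes prostaglandin D, was lower (-1.12 ± 0.17, adjusted p = 0.000514). Of the 21 measured prostaglandin and leukotriene genes, a list that does not hold Cysltr1, 3 were higher and 1 lower. Without Peyer's patch array 3 there were 7 higher, and the other fits without 1 array gave no fewer than 3. Ptgs2, the inducible cyclooxygenase, gave 2.82, 2.53 and 2.45 against 1.27, 1.46, 2.29 and 1.63. Those groups did not overlap, yet the gene was not called (0.93 ± 0.28, adjusted p = 0.0579), and it was called without Peyer's patch array 3 or peripheral array 3.

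Retinoid genes were called in both directions. Stra6, the receptor that takes up retinol from its plasma carrier, gave 3.20, 3.02 and 3.21 against 1.10, 1.08, 0.93 and 1.36, 4.08-fold higher (2.03 ± 0.16, adjusted p = 3.26e-07). Lrat, which stores retinol as an ester, was higher by 0.34 ± 0.09 (adjusted p = 0.0347), a call lost in 5 of the 7 fits without 1 array. Dhrs3, which turns retinaldehyde back into retinol, gave -1.997, -2.15 and -2.15 against -0.16, -0.29, -0.26 and 0.09, 3.85-fold lower (-1.94 ± 0.10, adjusted p = 1.48e-09). Rdh10, which makes retinaldehyde, was lower by 1.12 ± 0.21, with 0.71, 0.52 and 1.25 against 2.03, 1.75, 2.05 and 1.97. The nuclear receptor Rxra was also lower (-0.36 ± 0.08, adjusted p = 0.0114, not called without Peyer's patch array 2). In all, 2 of 20 members were higher and 4 lower. Fits without 1 array gave from 1 higher (without Peyer's patch array 1) to 6 (without array 3), and from 2 to 4 lower.

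Most growth factor and vessel patterning genes were not called, and the called ones included large differences in both directions. Fjx1, the mammalian relative of a fly Golgi kinase of planar polarity, gave 3.98, 3.44 and 3.59 against -0.15, -0.13, 0.07 and 0.00. At 3.72 ± 0.15 (13.2-fold, adjusted p = 6.24e-11) it matched Madcam1 in size. Slit2, a secreted guidance cue, was higher (1.55 ± 0.14, adjusted p = 1.79e-06), while its receptors Robo1 (-0.66 ± 0.11, adjusted p = 0.000905) and Robo2 (-0.56 ± 0.16, adjusted p = 0.0453) were lower, the latter a call lost in 5 of the 7 fits without 1 array. Bmp2, a morphogen, gave -0.67, -0.12 and -0.09 against 1.89, 1.40, 2.00 and 1.50, 3.97-fold lower (-1.99 ± 0.23, adjusted p = 2.55e-05). The latent TGF-beta binding proteins went opposite ways, Ltbp1 by 1.44 ± 0.16 and Ltbp2 by -1.31 ± 0.14. Notch2 gave -0.75, -1.86 and -1.07 against 0.51, 0.56, 0.61 and 0.58 (-1.79 ± 0.19, adjusted p = 1.09e-05), and the ligand Dll1 was lower by 0.97 ± 0.15. Angpt2, which loosens vessel contacts, gave 0.08, 0.54 and 0.37 against 1.89, 1.95, 1.98 and 1.59 (-1.52 ± 0.22, adjusted p = 0.000237). Of the TGF-beta and BMP list 5 of 29 members were lower and 2 higher, of the Notch and arterial list 4 of 20 lower and 0 higher, and of the guidance list 5 of 30 lower and 1 higher. These shares of lower genes exceed the 4.49% of all genes, but fits without 1 array gave from 2 to 6, from 3 to 6 and from 2 to 5 lower members.

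Several of the lowest genes are secreted, blood-facing or membrane proteins. F8, coagulation factor VIII, gave 1.18, 1.44 and 1.48 against 4.81, 4.65, 4.92 and 4.17 (-3.27 ± 0.27, adjusted p = 7.18e-07). Rnase1, an endothelial secreted ribonuclease, gave 0.00, 0.00 and 0.09 against 2.60, 2.50, 2.55 and 2.54 (-2.52 ± 0.15). Itih5, a hyaluronan-binding inter-alpha inhibitor chain, gave -3.33, -3.24 and -3.43 against 0.30, 0.30, 0.27 and 0.04 and was 11.8-fold lower (-3.56 ± 0.16, adjusted p = 4.07e-10). Sparcl1, a matricellular protein of HEC, differed by -2.68 ± 0.14. Slc7a6, a cationic amino acid transporter, gave -1.94, -1.59 and -2.05 against 1.85, 1.42, 1.79 and 1.44 (-3.49 ± 0.13, adjusted p = 4.03e-11). The urea transporter Slc14a1 differed by -3.28 ± 0.21 and the flippase Atp8a1, which moves lipids across membranes, by -2.82 ± 0.13. Ly6e, a lipid-anchored surface protein, gave -3.76, -3.86 and -3.42 against -0.26, -0.27, -0.34 and -0.30. With tight peripheral values it had the smallest adjusted p of the named genes (3.05e-11, difference -3.39 ± 0.12). Cldn13, a claudin, gave 0.22, 0.37 and 0.48 against 3.42, 3.19, 2.89 and 3.56 (-2.91 ± 0.14), and Pdlim3, which binds the actin cytoskeleton, was lower by 2.50 ± 0.18. Pf4, a chemokine best known from platelets, gave 0.32, 0.27 and 0.46 against 3.83, 2.85, 3.34 and 4.02 (-3.16 ± 0.21). It was the 1 called of 5 measured platelet and erythroid markers.

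Lpl, the lipase that frees fatty acids at the vessel wall, needs its arrays shown. Peyer's patch HEC gave -0.68, -0.91 and -0.44, and peripheral HEC 0.22, 3.24, 3.56 and 3.15. Array 1 of the peripheral group lay near the Peyer's patch arrays, and the difference of -3.22 ± 0.53 (adjusted p = 0.000968) ranged from -3.99 to -2.88 over the fits without 1 array. Arrays stood apart in both groups. Peyer's patch array 3 was at least 1 log2 unit above the other arrays of its group for 69 genes, and array 2 was as far below for 15. Peripheral array 1 was at least 1 log2 unit below its other 3 arrays for 20 genes and above them for 0. Among these, named after their values were seen, were the metallothioneins Mt1 and Mt2, Timp4, Serpina3n, Fgl2 and Nt5e. They also include the Y-linked genes Uty (-1.61 against 0.00 to 0.11) and Eif2s3y (-1.99 against -0.34 to -0.13), although the labels give every sample the same mix of sexes. A further Y-linked gene, Kdm5d, was low in array 1 by less than 1 unit (-1.03 against -0.23 to 0.14). The female-expressed Xist gave 0.64, 0.32, 0.82 and 0.68 in the peripheral HEC arrays, so array 1 was not the highest. In peripheral capillary arrays Xist gave 1.02, 0.03 and 0.19. Peripheral capillary array 1 was low for Uty, Eif2s3y and Mt2 (-1.65 for Uty, -1.61 for Eif2s3y and -2.85 for Mt2), as was the HEC array for Mt2 (-2.40). Whether arrays of 1 number share mice or a day is not stated in the labels.

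Junction genes held 3 higher and 3 lower of 27 measured, and fits without 1 array gave from 0 to 3 higher and from 1 to 6 lower. The caveolar gene Cavin2 was higher (1.07). Cldn5, the endothelial tight junction claudin, gave -0.67, -0.86 and -0.90 against 0.72, 0.14, 0.59 and -0.05 (-1.16 ± 0.30, adjusted p = 0.0253), and Cdh2, the neural-type cadherin, 0.00, -0.04 and 0.30 against 1.36, 1.30, 1.30 and 1.46 (-1.27 ± 0.16, adjusted p = 6.36e-05). The blood endothelial markers Emcn, Egfl7, Esam, Eng and Cldn5 were lower, 5 of 15 measured and 0 higher. Fits without 1 array gave from 2 to 6 lower, and Cldn5 lost its call in 4 of the 7 and Eng and Esam in 6 each. Basement membrane and integrin genes held 1 higher and 4 lower of 27, with from 2 to 7 lower without single arrays. Lamb1, a laminin chain of the basement membrane, was higher (1.64 ± 0.23, adjusted p = 0.000172), whereas Lamc1 (-0.57 ± 0.16, a call lost in 6 of the 7 fits), Itga9 (-1.17 ± 0.14) and Itgb3 (-1.02 ± 0.20) were lower. The heparan sulfate proteoglycan Gpc1 gave -0.02, -0.16 and -0.15 against 1.12, 1.03, 1.10 and 1.16 (-1.21 ± 0.10, adjusted p = 4.53e-07), and Sulf1, which trims sulfate from heparan sulfate, was lower by 1.07 ± 0.16. The syndecans Sdc3 (0.67) and Sdc1 (0.50) were higher, and both lost their calls without Peyer's patch array 1. They were the 2 higher of 24 heparan sulfate genes, against 3 lower.

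**Figure D3:**
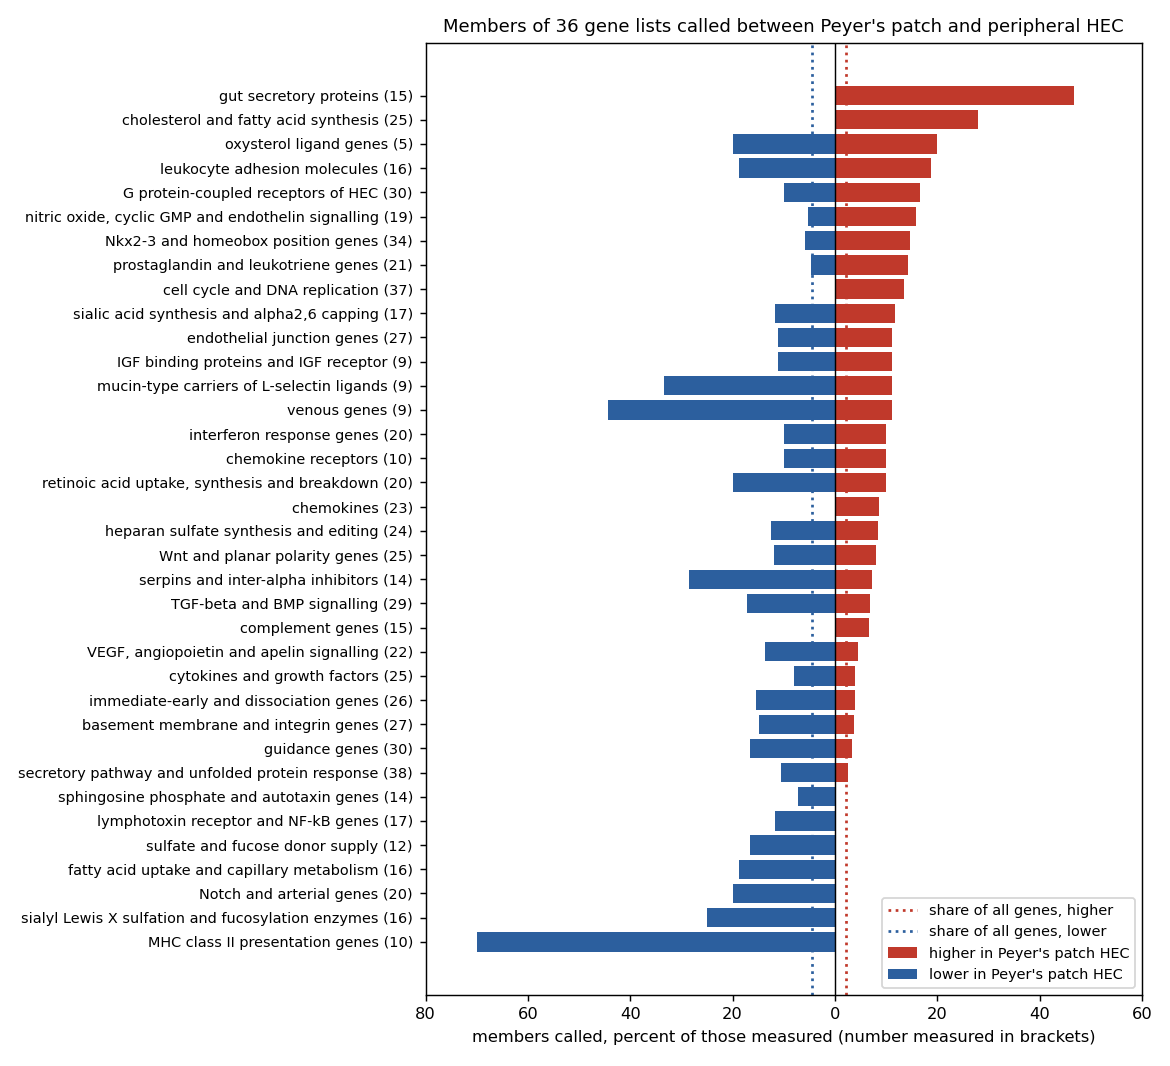
Percent of the measured members of 36 gene lists called higher (right) and lower (left) in Peyer's patch HEC, number measured in brackets; dotted lines show the shares of all genes, 2.16% higher and 4.49% lower. Gut secretory proteins (7 of 15) and cholesterol and fatty acid synthesis (7 of 25) lead on the higher side and MHC class II genes (7 of 10) on the lower side.

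The lipid synthesis list, of cholesterol and fatty acids, held higher genes and no lower ones. Of 25 measured, 7 were higher and 0 lower, and the median difference was 0.34. Scd1, a fatty acid desaturase, gave 1.28, 1.05 and 1.62 against 0.05, 0.24, 0.10 and 0.57 (1.08 ± 0.23, adjusted p = 0.00676). In the sterol branch, Idi1 (1.02 ± 0.27), Sqle (0.87 ± 0.17), Msmo1 (0.77 ± 0.17) and Fdps (0.72 ± 0.12) were higher. Peyer's patch array 3 had the highest list mean, 0.83 against 0.62 and 0.42 in arrays 1 and 2, and the peripheral arrays lay between 0.07 and 0.29. Without single arrays, 5 to 9 members were called, and Idi1 lost its call in 4 of the 7 fits. For the 37 cell cycle genes measured, 5 were higher and 0 lower, among them Rrm2 (0.80 ± 0.16) and Ube2c (0.61 ± 0.17). This count is less firm, since it ranged from 1 to 9 without single arrays and the list means of the tissues overlapped (0.33, 0.04 and 0.52 against 0.09, -0.28, 0.04 and 0.03).

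Antigen presentation genes were lower in Peyer's patch HEC, and so were B and T cell genes. MHC class II proteins display peptides to helper T cells, and Cd74 is their chaperone. H2-Ab1 gave -1.24, -1.42 and -0.81 against 1.16, 0.59, 0.81 and 0.83, 4.02-fold lower (-2.01 ± 0.16, adjusted p = 3.03e-07). H2-Aa gave -0.18, -0.25 and 0.00 against 1.58, 1.57, 1.80 and 1.64 (-1.79 ± 0.13), and Cd74 0.15, -0.59 and 0.42 against 1.77, 1.27, 1.52 and 1.30 (-1.47 ± 0.21). H2-Eb1 was lower by 1.22 ± 0.11 and the protease Ctss by 1.03 ± 0.25. In all, 7 of 10 measured members were lower and 0 higher, with a median difference of -0.90. Between the capillary cells of the same tissues, 5 of the 10 were also lower and 0 higher, among them Cd74 (-1.76 ± 0.22). Its HEC minus capillary difference was not called (adjusted p = 0.607). B cells also express class II genes. Of 11 B cell markers 4 were lower and 0 higher, namely Fcer2a (-1.24 ± 0.17), Ms4a1 (-1.06 ± 0.17), Cd79a (-0.83 ± 0.21) and Fcrla (-0.46 ± 0.11). Their mean over the list ran from 0.06 to 0.19 in Peyer's patch HEC and from 0.42 to 0.73 in peripheral HEC. Of 11 T cell markers 5 were lower and 0 higher, led by Cd3g (-0.83 ± 0.14) and Il7r (-0.77 ± 0.11), with list means from -0.06 to 0.18 against 0.34 to 0.41. Without Peyer's patch array 1 only 2 of the T cell markers were lower, and Cd79a lost its call in 3 of the 7 fits without 1 array and Ctss and Fcrla in 1 each. Centred values give no level, so whether a marker was at background in either group is unknown, and the part of lymphocyte RNA in the class II and Ccr7 differences was not tested. The cytokines Il7 (-0.78 ± 0.14) and Il15 (-1.20 ± 0.21), which sustain lymphocytes, were lower as well.

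Gut epithelial and mucus genes were higher in Peyer's patch HEC. Agr2, a folding enzyme of mucus-secreting cells, gave 2.05, 1.95 and 2.66 against 0.06, 0.03, -0.20 and -0.17 (2.29 ± 0.26, adjusted p = 2.41e-05). Muc2, the main intestinal mucin, gave 1.98, 0.62 and 1.88 against -0.07, 0.06, -0.13 and -0.21 (1.58 ± 0.25, adjusted p = 0.000729). The epithelial markers Lgals4 (1.22 ± 0.24), Krt19 (1.08 ± 0.18), Pigr (1.06 ± 0.19), Krt8 (0.99 ± 0.23) and Epcam (0.98 ± 0.11) were higher too, Krt8 with a call lost in 3 of the 7 fits without 1 array. Of 18 intestinal epithelial markers 11 were higher and 0 lower, and of 13 goblet, Paneth and enteroendocrine markers 5 were higher and 0 lower. The epithelial list mean was 0.55, 0.70 and 0.30 in the Peyer's patch arrays and between -0.20 and -0.04 in the peripheral arrays, and fits without 1 array gave from 6 (without Peyer's patch array 2) to 13 higher. In bulk samples, more cells of a type and more RNA per cell cannot be told apart. Beside these stand the Clca genes, calcium-activated channel regulators. Clca3b gave 2.23, 1.92 and 1.71 against 0.08, 0.00, -0.08 and -0.16 (2.00 ± 0.19), Clca3a2 differed by 1.86 ± 0.29 and Clca3a1 by 1.25 ± 0.26. These 3 are close relatives, so probes of 1 may read another. Clca1, the goblet cell member, was higher by 0.83 ± 0.11. In capillary cells, Peyer's patch minus peripheral was 1.28 for Clca3b, 2.97 for Clca3a2 and 3.81 for Clca3a1, all called. Clca1 (0.40) and Agr2 (0.81) were not called there. The epithelial list mean was 0.27, 0.82 and 1.26 in Peyer's patch and 0.06, 0.18 and 0.25 in peripheral capillary arrays. The part of epithelial RNA in the Clca and Agr2 differences was not tested.

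**Figure D4:**
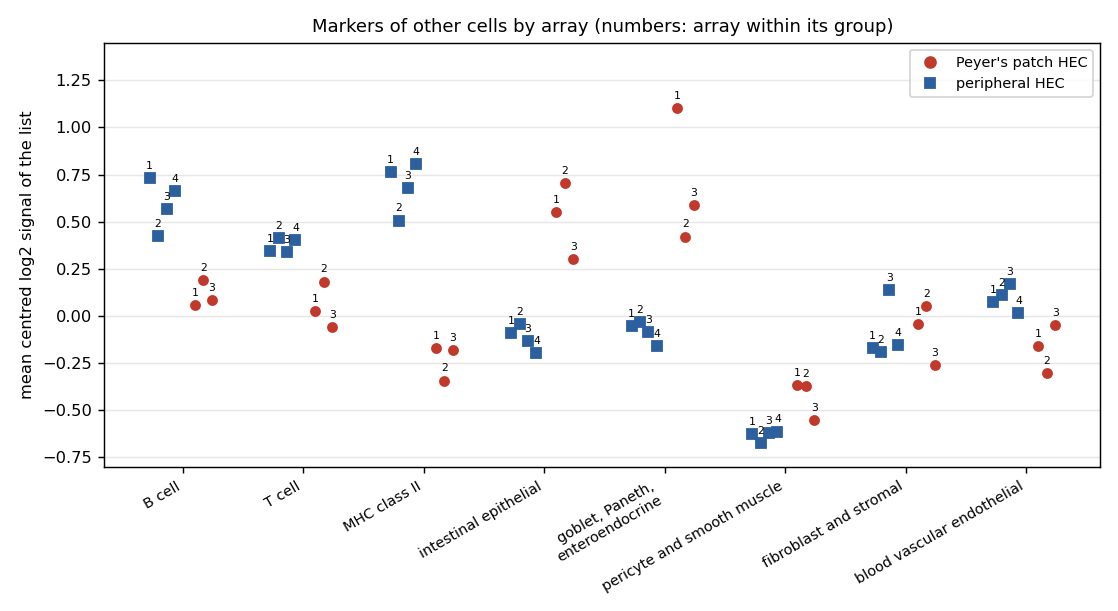
Mean centred log2 signal of 8 marker lists in each Peyer's patch (circles) and peripheral (squares) HEC array, numbered within its group. Peyer's patch arrays lie above all peripheral arrays for both epithelial lists and the pericyte list. They lie below them for the B cell, T cell, MHC class II and blood vascular endothelial lists, whereas fibroblast means overlap.

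Stromal markers were mostly not called. Of 13 fibroblast markers 0 were called by limma (4 were higher without Peyer's patch array 3), with list means from -0.26 to 0.05 in Peyer's patch HEC and from -0.19 to 0.14 in peripheral HEC. Of 14 pericyte and smooth muscle markers 1 was higher, Mcam, which endothelial cells also express (0.60 ± 0.16), and this call was lost in 5 of the 7 fits without 1 array. Still, 12 of the 14 differences were positive, against 54.9% of all genes, and their median was 0.21. The list means of the tissues did not overlap, from -0.55 to -0.37 in Peyer's patch HEC and from -0.68 to -0.61 in peripheral HEC. Genes that respond to cell dissociation showed 1 higher and 4 lower of 26, with 1 lower without Peyer's patch array 1 and 10 without array 3. Hspa1a, an inducible heat shock protein with a near-identical neighbour, gave -0.49, -0.54 and -0.17 against -3.10, -2.20, -2.005 and -2.22 (1.99 ± 0.22). Fosb (-0.90 ± 0.09), Btg2 (-0.73 ± 0.16), Klf4 (-0.53 ± 0.15) and Dusp1 (-0.49 ± 0.12) were lower, with the calls of Btg2, Klf4 and Dusp1 lost in 2, 5 and 4 of the 7 fits.

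The same tissues were also compared in capillary cells. The capillary arrays are separate from the HEC arrays. Peyer's patch against peripheral capillary cells gave 925 called genes (4.64%), 478 higher and 447 lower. Of the 431 genes higher in Peyer's patch HEC, 101 were also higher in its capillary cells, which is 23.4% of the HEC genes and 21.1% of the capillary genes, and 24 were lower there. Of the 895 lower genes, 147 were also lower (16.4% and 32.9%) and 27 were higher. Among at least 2-fold genes, 34 of 72 higher and 51 of 142 lower were called in the same direction in capillary cells. The test of the difference itself, HEC difference minus capillary difference, called 808 of all genes (4.05%), with a positive value for 1.69% and a negative value for 2.37%. It called 30 of the 72 and 84 of the 142. The HEC difference enters both the choice of these genes and this test, so the shares are a description.

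The homeobox genes and several of the largest differences were shared. Nkx2-3 gave 2.50, 2.08 and 2.22 in Peyer's patch and -0.15, 0.17 and -0.04 in peripheral capillary cells (2.27 ± 0.18, adjusted p = 4.2e-07). Meis2 differed by 2.88 ± 0.18 and Cysltr1 by 3.74 ± 0.26, and the difference between HEC and capillary cells was called for none of these 3 (adjusted p from 0.13 to 0.58). Itih5 (-4.84 ± 0.17) and Slc14a1 (-4.42 ± 0.22) were lower in capillary cells by more than in HEC, with the difference called for both (adjusted p = 0.00408 and 0.0475). With the replicate number as a block, the call was lost for Slc14a1 (adjusted p = 0.069). Abcc4, F2rl3 and Cd44 were higher in both cell types.

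For other genes the difference in HEC exceeded that in capillary cells, by the test of the difference itself. Fjx1 differed by 0.03 ± 0.16 in capillary cells, and its HEC difference was larger by 3.69 ± 0.21 (adjusted p = 2.41e-08). Gucy1a1 (-0.44 in capillary cells), Stra6 (0.26), Islr (-0.17) and Rgs16 (0.57) were not called there, and the difference between the cell types was called for each. Aplnr ran opposite ways, 2.95 in HEC and -0.87 ± 0.15 in capillary cells (adjusted p = 0.0016 in capillary cells). Pdlim3 did as well, -2.50 in HEC and 1.29 ± 0.19 in capillary cells. Dhrs3, Sparcl1, Rnase1, Cldn13 and Chrm3 were lower in HEC with capillary differences between -0.16 and 0.40, none called. Madcam1 was higher in Peyer's patch capillary cells too, by a smaller amount (0.97 ± 0.23, adjusted p = 0.0163). For Chst4 the capillary values were -0.10, -0.37 and -0.17 against 2.19, 1.57 and -0.15, and for Glycam1 -0.66, -2.26 and -1.38 against 4.42, 4.11 and 1.70. Peripheral capillary arrays 1 and 2 had HEC marker means of 1.20 and 1.05, against 0.20 in array 3 and -0.80 to -0.28 in the Peyer's patch arrays. The capillary values of Chst4 and Glycam1 were highest in those 2 arrays. Of the 16 sialyl Lewis X enzymes, 7 were lower and 0 higher in Peyer's patch than in peripheral capillary cells, among them Chst2 (-1.21 ± 0.14). The carrier Cd300lg was lower there too (-1.45 ± 0.17). For Chst2 and Cd300lg the difference between the cell types was not called (adjusted p = 0.304 and 0.147). The part of HEC RNA in the capillary differences of these genes was not tested.

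**Figure D5:**
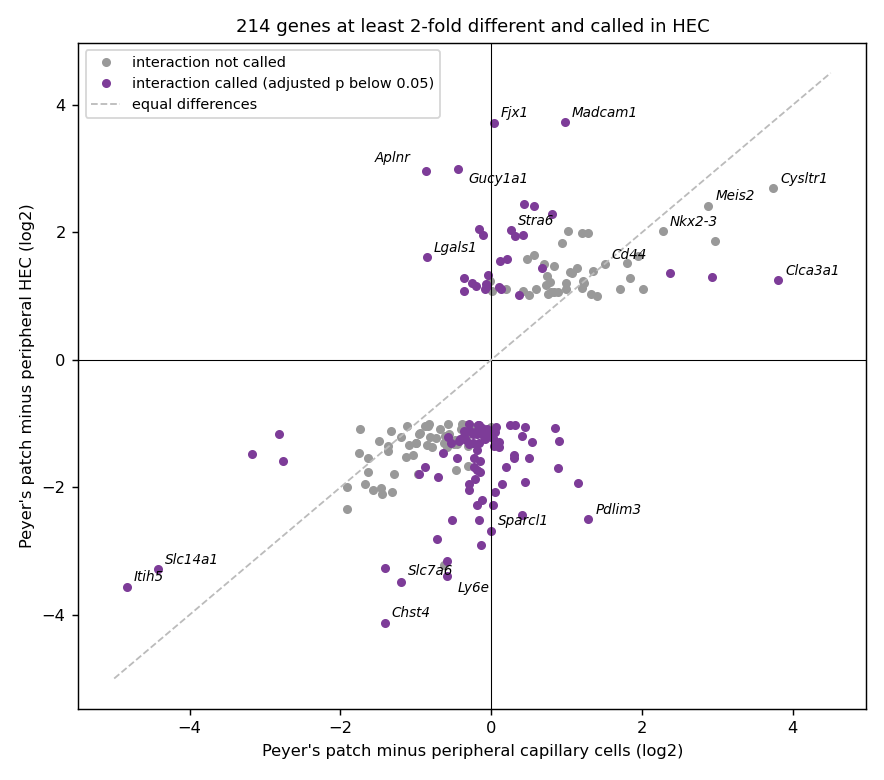
Peyer's patch minus peripheral difference in capillary cells (horizontal, log2) and in HEC (vertical, log2) for the 214 genes at least 2-fold different and called in HEC, coloured by whether the difference between the cell types was called. Nkx2-3 and Meis2 lie near the dashed line of equal differences, while Cysltr1 lies at 3.74 in capillary cells and 2.69 in HEC. Fjx1 lies at a capillary difference of 0.03, and Aplnr and Pdlim3 lie in the quadrants of opposite sign.

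Mesenteric nodes drain the gut and contain HEC with both addresses. Their difference from peripheral HEC uses the same 4 peripheral arrays as above, so both are set side by side and no overlap is read. Mesenteric minus peripheral HEC gave 537 calls (2.69%), and Peyer's patch minus mesenteric HEC 239 (1.2%). Some genes stood in mesenteric HEC where they stood in Peyer's patch HEC. Madcam1 gave 5.45 and 5.34 in the cells sorted for both antigens and 5.62 and 5.45 in those sorted for MAdCAM1, so that Peyer's patch minus mesenteric was 0.23 ± 0.21 (adjusted p = 0.711). Slc7a6 (0.01 ± 0.13) and Itih5 (-0.32 ± 0.16) also were not called between Peyer's patch and mesenteric HEC, although both were lower than in peripheral HEC by over 3 log2 units in mesenteric cells (-3.50 ± 0.12 and -3.23 ± 0.15).

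Other genes separated all 3 tissues. Fjx1 gave 1.48 to 1.65 in the 4 mesenteric arrays, above peripheral (1.63 ± 0.14, adjusted p = 1.65e-06) and below Peyer's patch HEC (2.09 ± 0.15, adjusted p = 8.84e-07). Gucy1a1 and Aplnr showed the same order. Ly6e was lower in mesenteric than peripheral HEC by 1.10 and lower again in Peyer's patch HEC by 2.29. Chst4 gave 5.38 and 5.67 in mesenteric cells sorted for both antigens and 3.90 and 4.18 in those sorted for MAdCAM1, against 1.69 to 2.11 in Peyer's patch HEC, and Peyer's patch minus the mean of the mesenteric gates was -2.86 ± 0.34 (adjusted p = 0.000187). St6gal1 was less clear, with 0.06 and 0.05 in the former cells and 0.71 and 0.53 in the latter, which overlapped the Peyer's patch arrays. Peyer's patch minus the mean of the mesenteric gates was 0.55 ± 0.13 for this gene (adjusted p = 0.0453), and the gates were not tested singly. Among HEC, Agr2, Clca3b and Cd44 stood apart in those of Peyer's patches, with differences from mesenteric HEC of 2.28, 1.86 and 1.66. None of these genes was called between mesenteric and peripheral HEC. Clca3b (1.28) and Cd44 (1.50) were also higher in Peyer's patch than in peripheral capillary cells. The class II genes H2-Aa (-1.35) and H2-Ab1 (-1.43) were lower in Peyer's patch than in mesenteric HEC as well.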

How the data were processed

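RNA of sorted endothelial cells was extracted (Qiagen RNeasy Plus Micro), amplified (Ambion WT) and labelled for Affymetrix whole-transcript arrays, according to protocols in the labels. The authors deposited log2 signals, and the submitters' processing notes name RMA and Partek, with versions not given in the sources used here. The deposited values range from -4.092 to 6.128 and 54.47% of probe sets hold an exact 0 in some array, so each probe set was centred on a baseline that is not stated. Scale and direction follow from the labels and the values, while the centring point is unknown, so no filter on background could be set.

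Of 28856 probe sets, 21789 had 1 gene symbol, 1621 had several and 5446 had none; only the first were used, and probe sets of a gene were averaged to 19938 genes (999 with more than 1). Through Entrez IDs 21698 probe sets matched RefSeq with GRCm38.p6, and 0 symbols changed. limma 3.58.1 in R 4.3.3 (lmFit, eBayes) was fitted to the 7 groups of all 19 arrays, with 12 residual degrees of freedom and Benjamini-Hochberg adjustment over all genes at 0.05. On simulated data 94% of genes changed by 1 log2 unit and 100% of those changed by 2 were called, with 8 unchanged genes called. The simulated noise was independent and had 1 spread per gene in all arrays. In the real data, differences between Peyer's patch HEC arrays 2 and 3 had an SD of 0.45. Between peripheral HEC arrays the SD was 0.196 to 0.264. The simulated rates therefore need not hold for these arrays. The number of arrays limits the precision.

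Named genes were the 15 highest and 15 lowest called genes of at least 1 log2 unit without overlap, up to 5 of the largest called genes of each of 50 lists, and genes fixed by name, 189 in all. The members and lists were chosen with earlier results of these data known. Alternatives left out each array, changed probe set choice, normalization, weights, groups and filter, or added a replicate block. Figures used Python 3.11.15 and matplotlib 3.10.9.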

Additional observations from a re-analysis of the deposited data

Results flagged for a closer look

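The peripheral HEC group has 4 arrays, so the gap of its highest or lowest array to the nearest other, divided by the group's range, can be set against Dixon's 95% critical value. The ratio was above it for 10 of the 189 named genes, and chance gives about 1 in 20. Array 1 was lowest for Il7r (0.899), Slco2a1 (0.877) and Lpl (0.876). Array 2 was lowest for Ms4a1 (0.896). Array 3 was highest for Lrp6 (0.885) and lowest for Btg2 (0.837). Array 4 was highest for Cxcl11 (0.854) and Il15 (0.832) and lowest for Itih5 (0.867) and Bmper (0.8292).

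The HEC difference minus the capillary difference, on the log2 scale, was called by limma for 27 of the 51 genes set against it. It was positive for Glycam1 (4.935), Aplnr (3.823), Fjx1 (3.689), Gucy1a1 (3.434), Madcam1 (2.754), Islr (2.212), Adgrg6 (2.019), Rgs16 (1.841), Stra6 (1.768), Agr2 (1.483), Itih5 (1.279), Ackr1 (1.227), Nr2f2 (1.174), Slc14a1 (1.134) and St6gal1 (0.7656). It was negative for Pdlim3 (-3.787), Chrm3 (-2.842), Ly6e (-2.80), Cldn13 (-2.773), Chst4 (-2.707), Sparcl1 (-2.67), Pf4 (-2.575), Rnase1 (-2.359), Slc7a6 (-2.291), Atp8a1 (-2.098), Tshr (-1.992) and F8 (-1.853). For Itih5 and Slc14a1 the positive sign means that they were lower in both cell types and more so in capillary cells. For Glycam1, Ackr1 and Nr2f2 the HEC difference itself was not called. Ackr1 differed by 0.12 in HEC and by -1.11 ± 0.19 in capillary cells. Glycam1, Ackr1 and Chst4 are HEC genes, and peripheral capillary arrays 1 and 2 had HEC marker means of 1.20 and 1.05 against 0.20 in array 3.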

How the results depend on the processing

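Leaving out 1 array gave from 712 to 5300 called genes, from 199 to 258 of at least 2-fold, from 236 to 2744 higher and from 460 to 2556 lower. Array quality weights gave 11209 calls (6042 higher, 5167 lower). These weights did not converge and put 41.6 on Peyer's patch array 1, and B3gnt3 then reversed to 0.19 (adjusted p = 0.0327). Fitting only the compared groups gave 743 calls, 239 higher and 504 lower. Normalizing by quantiles again gave 956 calls, 580 of them lower. The share of calls that were higher, 32.5%, was 51.8% without Peyer's patch array 3 and 53.9% with array weights. With the replicate number as a block there were 1027 calls, 357 higher and 670 lower, and 205 of at least 2-fold. Deviations from the group mean in same-numbered Peyer's patch and peripheral HEC arrays correlated at 0.01, 0.48 and 0.22. HEC and capillary arrays of Peyer's patch gave -0.11, 0.07 and -0.40, and those of peripheral nodes 0.08, 0.38 and -0.20. Deviations within such small groups depend on each other, so these values cannot tell whether arrays of 1 number share mice or a day. Peripheral HEC and capillary arrays 1 were both low for Uty, Eif2s3y and Mt2. For the HEC minus capillary difference the block, added after seeing the data, gave 705 calls in place of 808, with 650 in both, and 25 of the 27 genes named above for it were still called (not Agr2 and Slc14a1). All 30 of the largest genes stayed called in each fit without 1 array, and 126 of the 189 named genes lost a call in 0 settings. These 126 include fixed genes not called in the main fit, such as Glycam1, Cd34 and Gcnt1, which had no call to lose. In the 7 fits without 1 array, 59 named genes lost a call at least once. Signal over background is unknown for centred values.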

Other observations

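Of the 214 genes of at least 2-fold, 147 were in none of the lists. The genes named here were chosen after their values were seen. Lower in Peyer's patch HEC were Bst1 (-2.35), an ecto-enzyme of stromal and myeloid cells, Timp3 (-2.28), an inhibitor of matrix proteases, Mme (-1.92), a membrane peptidase, Tcf7l1 (-1.85), a Wnt pathway transcription factor, and Trf (-1.94), which encodes transferrin. Higher were Grik2 (1.95), a glutamate receptor subunit, Mboat2 (1.93), a lipid acyltransferase, Dmbt1 (1.83), a secreted mucosal scavenger protein, and Nqo1 (1.38), a quinone reductase.

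Some of these differences were larger in capillary cells. Lepr, the leptin receptor, was higher by 1.11 in HEC and 2.02 in capillary cells, Mctp1 by 1.30 and 2.92, and Klf12 by 1.36 and 2.37. Itm2a differed by -1.16 in HEC and -2.81 in capillary cells. Others had opposite signs, among them Lgals1, which encodes galectin-1 (1.61 in HEC and -0.85 in capillary cells), Fmo2, a monooxygenase (-1.93 and 1.15), and Nuak1, a kinase (-1.28 and 0.90).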
